A study of Mus musculus with 12 samples.

Results

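The axon guidance genes described here are the ligands and receptors of the semaphorin and plexin, ephrin and Eph, Slit and Robo, and netrin and Unc5 systems. The rule that picks their members uses gene symbols and no measured value, taking the rows named *Sema*, *Plxn*, *Efna* and *Efnb*, *Epha* and *Ephb*, *Slit*, *Robo*, *Ntn* and *Unc5*. This gave 68 of the 36186 gene rows, with 20 semaphorins, 9 plexins, 8 ephrins, 14 Eph receptors, 3 Slits, 4 Robos, 6 netrins and 4 Unc5 receptors. Of the 68, 39 reached 5 NRPKM in at least 3 of the 12 libraries and were tested, and 29 did not. NRPKM is the number of reads per kilobase of transcript scaled to the number of mapped reads of the library, and normalized further between libraries by the authors.

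The 12 libraries came from forelimb zeugopod (the radius and ulna segment) of mouse embryos at E15.5 on a mixed 129/CD-1 background, with cells taken by laser capture microdissection (LCM). Each of the 4 groups had 3 libraries. WT resting, WT proliferative and WT hypertrophic are compartments of the normal growth cartilage, the last of them labelled hyperproliferative by the submitters. The *aadd* libraries were from embryos homozygous for frameshift mutations in *Hoxa9*, *Hoxa10*, *Hoxa11*, *Hoxd9*, *Hoxd10* and *Hoxd11*, made with inserted LoxP sites and small deletions. These are labelled resting, but the mutant zeugopod is small and has no visible compartments, and all of its chondrocytes were captured together. Perichondrium next to the cartilage contributed to every group. An *aadd* library is therefore compared with a single WT compartment and not with matched whole WT cartilage.

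These families were named for steering growth cones. A ligand on or from a neighboring cell binds a receptor, which changes the cytoskeleton and adhesion of the receiving cell through small GTPases and kinases. Semaphorins signal through plexins, with neuropilins as co-receptors for the secreted class 3 members, Slits through Robos, netrins through Dcc and Unc5 receptors, and ephrins through Eph receptor tyrosine kinases, in both directions across a contact. The same molecules act outside the nervous system, in blood vessel patterning, in cell sorting at tissue borders and in signals between osteoclasts and osteoblasts in bone.

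Promoters were looked up for the members, since several of them passed the test in the same direction and since posterior Hox proteins bind short sequences built on TTTAT or TTTAC. RefSeq (build GRCm38.p6) gave 75 promoters for 59 of the 68 members, each holding 250 bases before and 50 after the start of transcription. The median GC content was 64% over these 75 and 52.7% over all 32851 promoters of that table. Either Hox core, on either strand, was in 21 of the 75 (28%) and in 54.7% of all promoters. The GC box GGGCGG (reverse CCGCCC) was in 69.33% of the members' promoters and 35.66% of all, and the Runx core TGTGGT (reverse ACCACA) in 12% and 16.76%. The promoters of 5 members are shown, the first 3 for the level of these genes in *aadd* and the last 2 for their rise through the WT compartments. *Plxna4*, the only member with an adjusted *P* under 0.05 between *aadd* and WT resting, is not among them. Each promoter shown is written 5′ to 3′ on the strand of the gene, with matches to these 4 motifs in capitals (TTTAT and TTTAC can overlap). The *Efna5* promoter lies at chr17:62881268-62881567 on the minus strand, *Slit2* at chr5:47982905-47983204 on the plus strand, *Robo2* at chr16:74411776-74412075 on the minus strand, *Unc5b* at chr10:60831532-60831831 on the minus strand and *Plxnd1* at chr6:115994956-115995255 on the minus strand.
Efna5: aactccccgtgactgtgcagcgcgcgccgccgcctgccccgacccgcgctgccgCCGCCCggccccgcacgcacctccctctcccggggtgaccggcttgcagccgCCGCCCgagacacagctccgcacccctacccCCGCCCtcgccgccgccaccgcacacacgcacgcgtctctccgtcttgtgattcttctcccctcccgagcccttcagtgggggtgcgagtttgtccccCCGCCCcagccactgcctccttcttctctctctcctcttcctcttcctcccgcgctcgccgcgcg
Slit2: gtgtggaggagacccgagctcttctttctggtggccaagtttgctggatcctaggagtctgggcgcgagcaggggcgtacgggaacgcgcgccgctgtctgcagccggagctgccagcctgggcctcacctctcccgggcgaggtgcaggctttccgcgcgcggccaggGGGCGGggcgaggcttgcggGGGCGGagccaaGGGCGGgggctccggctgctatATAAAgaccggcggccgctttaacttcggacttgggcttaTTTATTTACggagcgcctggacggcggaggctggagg
Robo2: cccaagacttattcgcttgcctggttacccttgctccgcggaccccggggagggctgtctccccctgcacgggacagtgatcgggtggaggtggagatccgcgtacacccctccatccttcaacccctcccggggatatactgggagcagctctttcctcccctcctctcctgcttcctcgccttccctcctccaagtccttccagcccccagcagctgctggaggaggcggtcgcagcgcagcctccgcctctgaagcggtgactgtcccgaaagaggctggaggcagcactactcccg
Unc5b: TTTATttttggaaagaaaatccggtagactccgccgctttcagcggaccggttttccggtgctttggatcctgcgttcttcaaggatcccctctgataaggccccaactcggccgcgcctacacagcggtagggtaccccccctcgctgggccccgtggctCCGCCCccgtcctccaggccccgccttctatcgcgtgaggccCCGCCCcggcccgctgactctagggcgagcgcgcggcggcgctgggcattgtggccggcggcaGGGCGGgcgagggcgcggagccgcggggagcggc
Plxnd1: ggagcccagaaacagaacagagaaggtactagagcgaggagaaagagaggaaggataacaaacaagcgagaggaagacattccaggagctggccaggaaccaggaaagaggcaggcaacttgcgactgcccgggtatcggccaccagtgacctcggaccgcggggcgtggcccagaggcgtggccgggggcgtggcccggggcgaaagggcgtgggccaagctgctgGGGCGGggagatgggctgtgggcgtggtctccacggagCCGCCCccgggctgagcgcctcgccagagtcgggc
*Slit2* held both TTTAT, on both strands, and TTTAC, beside 3 GC boxes. *Unc5b* held TTTAT at the far end of the window and 3 GC boxes. *Efna5* had 4 GC boxes and *Plxnd1* had 2, and neither had a Hox core in this window. *Robo2* had no match to the 4 motifs. Its start lies 913 bases outside the gene row of the expression file, whose 5′ end differs. A match describes these letters only.

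The depth behind the values, read from the size of a single read in low genes, was about 1890000 to 3240000 reads per library, so that 1 read on 1 kb of exon was worth 0.309 to 0.53 NRPKM. Transcripts of the mutated genes were present in *aadd*, with *Hoxd9*, *Hoxd10* and *Hoxd11* higher in all 3 *aadd* libraries than in any WT library, so that RNA level does not mark the frameshift alleles. Cartilage matrix markers summed to 2380 to 4955 NRPKM in 10 libraries, and to 677 and 965 in WT hypertrophic replicates 2 and 3. In the same 2 libraries 10 osteoclast markers summed to 1334 and 978 NRPKM, against 38.4 in hypertrophic replicate 1 and 5.87 to 26.7 in the other 9 libraries. The sum of 10 endothelial markers was 303 and 210 NRPKM in replicates 2 and 3, 21.8 in replicate 1 and 5.24 to 38.9 elsewhere, and that of 9 macrophage markers 281 and 228, 23 and 12.9 to 40.0 in the same order. The osteoclast gene *Siglec15* was at 4.23 and 3.98 NRPKM in hypertrophic replicates 2 and 3 and at 0 in every other library, hypertrophic replicate 1 included. Among the hypertrophic chondrocyte markers, *Mmp13* was at 3.05 NRPKM in replicate 1 and 735 and 661 in replicates 2 and 3. *Col10a1*, *Ihh*, *Panx3* and *Pth1r* went the other way, with replicate 1 highest of the hypertrophic libraries. A difference in chondrocyte stage between these replicates was not tested. Values of hypertrophic replicate 1 are therefore given apart from those of replicates 2 and 3 below. In such bulk samples, fewer cells of a type and less RNA per cell cannot be told apart.

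Among the 39 genes tested, mean levels over the 12 libraries ran from 3.47 NRPKM (*Sema4c*) to 50.8 (*Sema6a*). The highest ligand was *Sema6a*, a transmembrane semaphorin, at 68.4, 45.9 and 39.2 NRPKM in WT resting, 69.1, 40.6 and 48.7 in WT proliferative, 80.2, 20.5 and 24.2 in WT hypertrophic and 58.2, 44.8 and 69.7 in *aadd*. *Unc5c*, a netrin receptor, was the highest receptor, at 69.8, 49.98 and 46.3 NRPKM in WT resting and 61.1, 47.9 and 62.1 in *aadd*. The groups overlapped for *Sema6a*, where hypertrophic replicate 1 was the highest and replicates 2 and 3 the lowest of the 12 libraries. Of the netrins only *Ntn3* was tested.

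**Figure D1:**
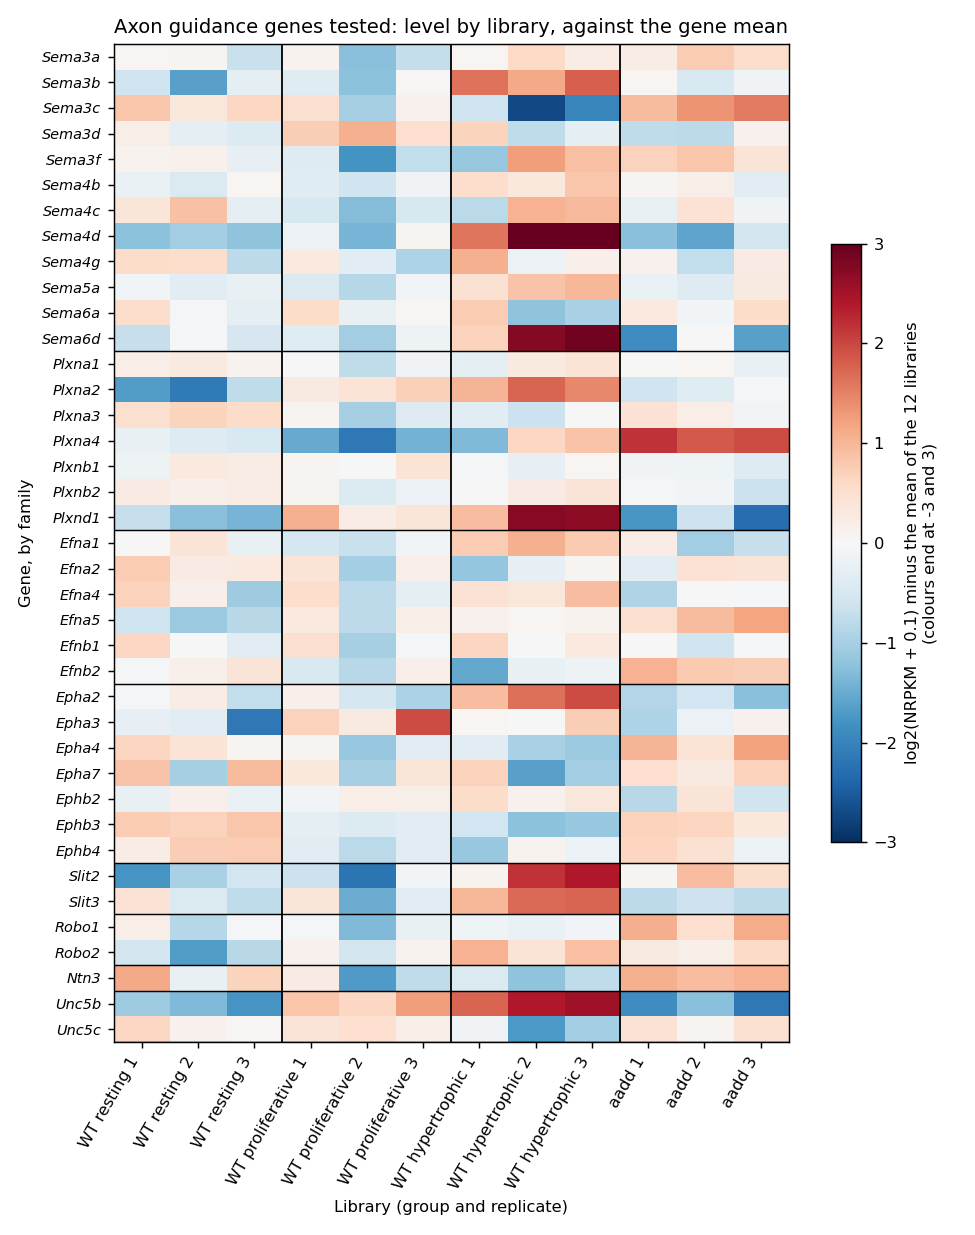
The 39 tested genes, by family, in the 12 libraries. Color gives log2(NRPKM + 0.1) minus the mean of that gene over the 12 libraries, red above and blue below, with colors ending at -3 and 3. *Sema4d*, *Sema6d*, *Plxnd1*, *Slit2*, *Slit3* and *Unc5b* are red in the WT hypertrophic libraries, most of all in replicates 2 and 3, and *Plxna4* is red in the 3 *aadd* libraries.

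Summed over all members of a family, tested or not, semaphorin RNA was 224, 231 and 265 NRPKM in WT hypertrophic, above every other library (124 to 202). Untested *Sema7a* gave 32.7 and 38.9 NRPKM of this in hypertrophic replicates 2 and 3, and at most 2.999 in any other library. Whether the groups stay apart without *Sema7a* was not computed. Slit RNA was 37.5, 72.5 and 78.7 NRPKM in WT hypertrophic and at most 24.8 elsewhere. Robo RNA was 40.9 to 50.8 NRPKM in WT hypertrophic and 41.7 to 58.2 in *aadd*, against 15.4 to 30.8 in WT resting and WT proliferative. In hypertrophic replicates 2 and 3 this included 17.2 and 13.2 NRPKM of *Robo4*, an untested Robo of endothelial cells. *Robo4* was at most 1.90 in any other library. Whether WT hypertrophic stays above the other WT groups without it was not computed. Eph receptor RNA was lower in WT hypertrophic (67.4 to 70.0 NRPKM) and WT proliferative (55.4 to 83.1) than in WT resting (96.8 to 104.6) and *aadd* (87.2 to 101.1), without overlap, while ephrin RNA was highest in *aadd* (111.1 to 120.6, against 47.6 to 99.6 in the WT libraries). These sums are descriptions and were not tested. WT hypertrophic replicates 2 and 3 are the libraries with high osteoclast, endothelial and macrophage marker sums. The part of those cells in the family sums was not tested.

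In limma's F test over the 4 groups, 18 of the 39 members had an adjusted *P* under 0.05, against 13.8% of the 10936 genes tested. *Unc5b* (adjusted *P* = 0.00012), *Ephb3* (0.001), *Plxna2* (0.0018), *Sema4d* (0.002), *Plxna4* (0.0042) and *Plxnd1* (0.0052) had the lowest. The hypertrophic group had the highest mean for 20 of the 39 members (51.3%) and for 34.3% of all genes tested. Of the 20, *Epha2*, *Sema3f*, *Sema4c*, *Sema4d*, *Sema6d* and *Slit2* needed their hypertrophic libraries to pass the filter on low values. Their highest means there are no independent evidence. *Epha2*, *Sema4d*, *Sema6d* and *Slit2* are also among the 18, as is *Plxna4*, which needed its *aadd* libraries for the filter. The F test calls of these genes depend on that filter. Without hypertrophic replicate 2 the number of members with an adjusted *P* under 0.05 in the F test was 11, and without replicate 3 it was 8. No share of all genes was computed for these 2 fits. A two-sided exact permutation of 3 libraries against 3 reaches no *P* lower than 0.1, and the calls therefore rest on limma, which shares information on variance between genes. Each *P* value sets a difference between groups against the spread of the libraries within them. Replicate numbers were not used as pairs in the main fits.

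The first comparison asked how the genes differed as resting cells gave way to proliferative cells. By the fold and *P* limits of the study (FC of at least 2 and *P* up to 0.05, taken here before adjustment), 9 of the 39 members differed, against a background of 5.53% of all genes. The 4 that were higher in WT proliferative were receptors (*Unc5b*, *Plxna2*, *Plxnd1* and *Epha3*), with 2.56% of all genes higher. Lower were the receptors *Ephb3*, *Ephb4*, *Plxna3* and *Plxna4* and the ligand *Sema4c*, with 2.97% of all genes lower. No ephrin, Slit, Robo or netrin passed. The median log2 fold change was -0.25 over the members and -0.06 over all genes. Fold changes are on the log2(NRPKM + 0.1) scale, which understates the change of low genes.

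*Unc5b*, a netrin receptor of the dependence receptor class, was at 5.496, 4.59 and 3.34 NRPKM in WT resting and 20.7, 17.9 and 27.8 in WT proliferative. Its libraries did not overlap, and it was 4.88-fold higher in WT proliferative (log2 2.29 ± 0.26, adjusted *P* = 0.025). *Plxna2*, a receptor of class 3 and class 6 semaphorins, was at 1.33, 0.952 and 2.57 NRPKM in WT resting and 5.42, 5.92 and 7.34 in WT proliferative. Every proliferative library exceeded the resting libraries, and the FC was 3.95 (log2 1.98 ± 0.35, adjusted *P* = 0.086). *Plxnd1*, known from vessel patterning as a receptor of Sema3e, was at 7.26, 4.87 and 4.39 NRPKM in WT resting and 24.9, 13.7 and 15.3 in WT proliferative. It rose 3.18-fold (adjusted *P* = 0.086), again without overlap. *Epha3*, a receptor of ephrin-A ligands, was at 3.46, 3.21 and 0.848 NRPKM in WT resting and 6.71, 4.95 and 16.2 in WT proliferative, with 1 high library (replicate 3) in the proliferative group (FC 3.69, adjusted *P* = 0.23).

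*Ephb3*, a receptor of ephrin-B ligands, was at 15.7, 14.8 and 16.5 NRPKM in WT resting and 7.67, 6.94 and 7.39 in WT proliferative. The replicates were close within each group, and the gene was 2.12-fold lower in WT proliferative (log2 -1.09 ± 0.15, adjusted *P* = 0.04). *Ephb4*, which binds ephrin-B2, fell from 30.2, 43.6 and 43.8 NRPKM to 20.9, 14.7 and 20.9 (2.07-fold lower, adjusted *P* = 0.12). *Plxna3*, a plexin that works with neuropilins, was at 17.9, 20.4 and 18.8 NRPKM in WT resting and 13.5, 6.32 and 9.76 in WT proliferative (2.01-fold lower, adjusted *P* = 0.19). *Plxna4* was low in both, at 2.86, 2.51 and 2.41 against 1.10, 0.669 and 1.19 NRPKM (2.54-fold lower, adjusted *P* = 0.085), which came to about 18 to 40.5 reads in a proliferative library. *Sema4c*, a transmembrane ligand of plexin-B receptors, was at 3.95, 5.75 and 2.48 and 2.19, 1.19 and 2.18 NRPKM (2.09-fold lower, adjusted *P* = 0.24). These 9 genes did not overlap between the groups. *Epha3* and *Sema4c* would not have passed the filter on low values without the group in which they were higher, so that their calls depend on that choice. WT hypertrophic libraries also counted toward the filter, at 6.88 NRPKM for *Epha3* and at 6.44 and 6.10 for *Sema4c*. Counting also members that missed the criteria, 14 of the 39 did not overlap (24% of all genes), 5 of them higher (9.83%) and 9 lower (14.2%) in WT proliferative.

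*Unc5b* and *Ephb3* were the 2 members with an adjusted *P* under 0.05, against 0.622% of all genes. With the replicate number as a block neither passed (adjusted *P* 0.083 and 0.084), *Epha3* and *Sema4c* lost the call (unadjusted *P* 0.061 and 0.058), and the direction of all 9 stayed. Leaving out a library ended the call of *Epha3* (log2 1.39 without proliferative replicate 3 and 1.26 without resting replicate 3), *Ephb4* (-0.88, -0.96 and -0.96 without proliferative replicate 2, resting replicate 2 and resting replicate 3), *Plxna3* (-0.72 and -0.95 without proliferative or resting replicate 2) and *Sema4c* (-0.79, -1.04 and -0.78 without proliferative replicate 2, resting replicate 1 and resting replicate 2). With a library left out, an adjusted *P* under 0.05 was seen without resting replicate 1 (*Unc5b*, 0.045) and in no other of the 6 fits. With a pseudocount of 1 *Plxna4* lost the call (log2 -0.86), as did *Plxna3* and *Sema4c*. After quantile normalization 6 members were higher and 2 lower, in place of 4 and 5, while 5.58% of all genes passed. Muscle markers summed to 134 NRPKM in proliferative replicate 3 and to 7.6 to 17.6 in the other 5 libraries compared, and their part in the *Epha3* value of that library was not tested. The same library was high in osteoblast and perichondrial markers (1193 NRPKM, against 504 and 540 in the other proliferative libraries) and erythroid markers (147, against 62.5 and 63.3). Joint markers were lower in WT proliferative (99.7 to 116 NRPKM) than in WT resting (205 to 259.6), without overlap. The part of these was not tested.

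The comparisons of WT hypertrophic cells with the other compartments asked which guidance genes marked the last step of chondrocyte maturation. Against WT resting, 15 of the 39 members passed the criteria, with a background of 13% of all genes, 10 of them higher (5.84% of all genes) and 5 lower (7.2%). Against WT proliferative, 13 passed (background 9.67%), 11 of them higher (5.32%) and 2 lower (4.34%). The higher genes in both were the ligands *Sema3b*, *Sema4d*, *Sema6d*, *Slit2* and *Slit3* and the receptors *Unc5b*, *Plxnd1* and *Epha2*, and the lower in both were *Sema3c* and *Unc5c*. The 2 comparisons share the hypertrophic libraries. *Sema4d*, *Sema6d*, *Slit2* and *Epha2* (4 of the 15 and of the 13) would not have passed the filter on low values without their hypertrophic libraries. They could hardly be tested without being higher there, and their calls and lack of overlap are no independent evidence. The median log2 fold change was 0.35 over the members and -0.02 over all genes against WT resting, and 0.51 and 0.04 against WT proliferative.

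Among the receptors, *Unc5b* reached 38.7, 61.2 and 68.3 NRPKM in WT hypertrophic. All 3 libraries lay above the proliferative ones, which lay above the resting ones. It was 12.2-fold higher than in WT resting (log2 3.60 ± 0.29, adjusted *P* = 0.0033) and 2.495-fold higher than in WT proliferative (adjusted *P* = 0.14). *Unc5c*, the related receptor, was at 59.7, 64.2 and 51.5 NRPKM in WT proliferative and 42.4, 13.7 and 22.2 in WT hypertrophic. It was 2.47-fold lower than in WT proliferative (adjusted *P* = 0.19) and 2.31-fold lower than in WT resting (adjusted *P* = 0.14), with all 3 hypertrophic libraries below the 6 other WT libraries. *Plxna2* was at 9.08, 15.1 and 12.2 NRPKM in WT hypertrophic, 7.53-fold above WT resting (adjusted *P* = 0.013), and each of its 3 compartments was separate from the next.

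*Plxnd1* was at 22.3, 78.5 and 76.6 NRPKM in WT hypertrophic, with replicate 1 inside the range of the proliferative libraries and replicates 2 and 3 far above it. It was 9.37-fold higher than in WT resting (adjusted *P* = 0.025) and 2.94-fold higher than in WT proliferative (adjusted *P* = 0.22). *Robo2*, a Slit receptor, was at 6.71, 2.98 and 5.47 NRPKM in WT resting, 10.7, 6.64 and 10.6 in WT proliferative and 20.4, 13.0 and 18.5 in WT hypertrophic. The hypertrophic libraries lay above all others of WT, and the gene was 3.50-fold higher than in WT resting (adjusted *P* = 0.037). *Epha2*, a receptor of ephrin-A1, was at 2.62, 3.13 and 1.58 NRPKM in WT resting, 3.01, 1.86 and 1.34 in WT proliferative and 5.23, 8.67 and 10.8 in WT hypertrophic. This was 3.25-fold above WT resting (adjusted *P* = 0.047) and 3.86-fold above WT proliferative (adjusted *P* = 0.13), with no overlap in either.

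The other Eph receptors that passed were lower. *Ephb3* was at 6.11, 3.85 and 4.12 NRPKM in WT hypertrophic, 3.36-fold below WT resting (log2 -1.75 ± 0.22, adjusted *P* = 0.011), so that resting, proliferative and hypertrophic libraries formed 3 separate steps downward. *Epha4*, which binds both classes of ephrins, was at 13.5, 11.4 and 9.05 NRPKM in WT resting and 6.77, 4.27 and 3.89 in WT hypertrophic (2.28-fold lower, adjusted *P* = 0.057). *Plxna4* was at 1.26, 5.21 and 6.08 NRPKM in WT hypertrophic, where replicate 1 was near the proliferative libraries and replicates 2 and 3 above the resting ones (FC 3.36 over WT proliferative, adjusted *P* = 0.21).

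Among the ligands, *Sema4d*, a transmembrane semaphorin that binds plexin-B1 and that osteoclasts are known to make, was at 1.43, 1.65 and 1.47 NRPKM in WT resting, 3.10, 1.28 and 3.69 in WT proliferative and 10.9, 34.9 and 39.3 in WT hypertrophic. It had the largest fold change of the members tested against WT resting (FC 15.3, log2 3.94 ± 0.49, adjusted *P* = 0.011) and was 9.67-fold above WT proliferative (adjusted *P* = 0.12). Its known receptor gene *Plxnb1* was at 14.7 to 23.1 NRPKM in the 9 WT libraries and passed in no comparison. *Sema6d*, a ligand of class A plexins, was at 3.33, 5.33 and 3.78 NRPKM in WT resting, 4.17, 2.58 and 4.86 in WT proliferative and 8.87, 37.3 and 40.8 in WT hypertrophic. All hypertrophic libraries were above the rest, replicate 1 by the least (FC 6.23 over WT proliferative, adjusted *P* = 0.15, and 5.75 over WT resting, adjusted *P* = 0.063).

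The 2 secreted semaphorins that passed did so in opposite directions. *Sema3b* was at 4.15, 1.96 and 5.23 NRPKM in WT resting, 4.92, 2.63 and 6.53 in WT proliferative and 19.9, 14.01 and 22.0 in WT hypertrophic. Replicate 1 was level with replicates 2 and 3 here, and the gene was 5.11-fold above WT resting (adjusted *P* = 0.025) and 4.10-fold above WT proliferative (adjusted *P* = 0.12). *Sema3c* was at 20.2, 14.2 and 17.3 NRPKM in WT resting, 15.8, 5.57 and 12.3 in WT proliferative and 7.41, 1.65 and 2.81 in WT hypertrophic. It was 5.09-fold below WT resting (log2 -2.35 ± 0.52, adjusted *P* = 0.053) and 3.08-fold below WT proliferative (adjusted *P* = 0.25), the latter with overlap.

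*Slit3*, a secreted Robo ligand, was at 21.5, 11.7 and 9.35 NRPKM in WT resting, 20.5, 5.61 and 12.56 in WT proliferative and 31.7, 51.6 and 53.9 in WT hypertrophic. Every hypertrophic library was above the 6 others (3.33-fold over WT resting, adjusted *P* = 0.049, and 3.90-fold over WT proliferative, adjusted *P* = 0.16). *Slit2* was at 1.28, 2.29 and 3.04 NRPKM in WT resting, 2.88, 0.922 and 4.30 in WT proliferative and 4.88, 20.8 and 24.7 in WT hypertrophic, with replicate 1 just above the highest proliferative library (FC 5.77 over WT proliferative, adjusted *P* = 0.19, and 6.30 over WT resting, adjusted *P* = 0.068). A microRNA gene lies inside *Slit2*, *Slit3* and *Robo2* each, with rows at 10.9, 4.13 and 9.41 NRPKM at most, and the strand of the reads is not known. *Efna1*, a membrane-anchored ligand of Epha2, was at 6.35, 5.73 and 8.57 NRPKM in WT proliferative and 15.51, 19.1 and 15.6 in WT hypertrophic (2.44-fold higher, adjusted *P* = 0.12), the 3 hypertrophic libraries being close to each other. *Sema5a* was at 12.52, 9.35 and 16.0 NRPKM in WT proliferative and 23.2, 30.8 and 33.6 in WT hypertrophic (2.33-fold higher, adjusted *P* = 0.14). Against WT resting *Sema5a* and *Efna5* had adjusted *P* under 0.05 (0.043 and 0.04) with FC of 1.98 and 1.93, short of the fold required. *Ntn3*, a netrin, was at 12.55, 4.80 and 8.97 NRPKM in WT resting and 4.13, 2.39 and 3.28 in WT hypertrophic (2.51-fold lower, adjusted *P* = 0.096), although its row overlaps *Tbc1d24*, which reached 12.9 NRPKM.

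**Figure D2:**
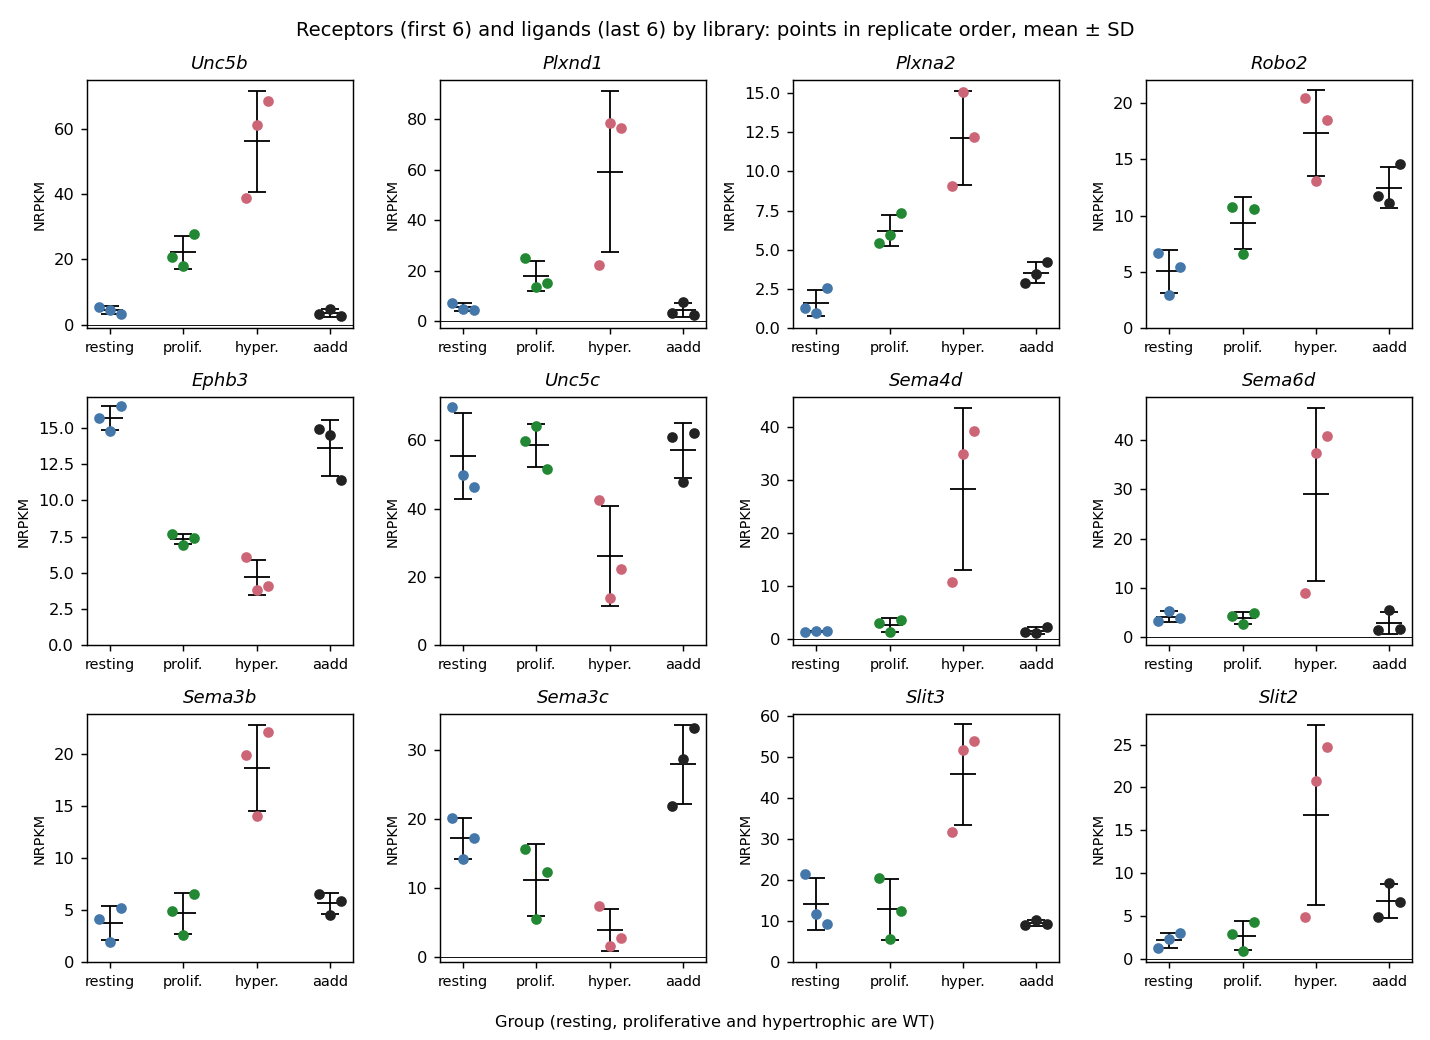
NRPKM (linear axis from 0) of 6 receptors (*Unc5b*, *Plxnd1*, *Plxna2*, *Robo2*, *Ephb3* and *Unc5c*) and 6 ligands (*Sema4d*, *Sema6d*, *Sema3b*, *Sema3c*, *Slit3* and *Slit2*) in each library of the 4 groups. Points are libraries in replicate order, and the horizontal bar with whiskers is the mean ± SD of 3 libraries. *Unc5b*, *Plxna2* and *Robo2* climb from WT resting to WT hypertrophic, *Ephb3* descends, and the spread in WT hypertrophic is wide for *Sema4d*, *Sema6d*, *Plxnd1* and *Slit2*.

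Against WT resting 11 members had an adjusted *P* under 0.05, beside 6.36% of all genes. Of these, 10 were higher (3.21% of all genes) and *Ephb3* was lower (3.15%). Without overlap were 24 members (32% of all genes) against WT resting and 15 (24.2%) against WT proliferative. Without hypertrophic replicate 1, 2 or 3 the number with an adjusted *P* under 0.05 against WT resting was 21, 3 or 2, and without resting replicate 1, 2 or 3 it was 6, 1 or 2. Shares of all genes by adjusted *P* were not computed for fits with a library left out or for the fit of all 12 libraries. The study's criteria were met in every such fit by 14 of the 15 members, the exception being *Unc5c* (log2 -0.82 and -1.17 without hypertrophic replicate 2 or 3, -1.03 and -1.27 without resting replicate 1 or 2). Against WT proliferative no member, and no gene of the 10936, reached an adjusted *P* below 0.05 by limma (0%). An unadjusted *P* up to 0.05 was seen for 18 members, a count for which no share of all genes was computed. Without hypertrophic replicate 1, 19 members passed the criteria, beside 18.4% of all genes, and 19 had an adjusted *P* under 0.05. Without replicate 3, 8 passed the criteria, beside 6.02% of all genes, and 0 had an adjusted *P* under 0.05. With all 12 libraries fitted together 11 had an adjusted *P* under 0.05. There were 8 members that passed the criteria in every fit with a library left out (*Efna1*, *Epha2*, *Sema3b*, *Sema4d*, *Sema5a*, *Sema6d*, *Slit3* and *Unc5b*). The others lost the call without hypertrophic replicate 2 or 3, where log2 values were 1.46 and 1.35 for *Plxna4*, 1.25 and 1.27 for *Plxnd1*, 2.23 and 2.10 for *Slit2*, -1.15 and -1.52 for *Sema3c* and -0.92 and -1.27 for *Unc5c*. Leaving out a proliferative library ended the call for the same 5 genes, for *Plxna4* without replicate 1 or 2 (1.84 and 1.52), *Plxnd1* without 2 or 3 (1.39 and 1.47), *Slit2* without 2 (1.92), *Sema3c* without 1 or 3 (-1.32 and -1.49) and *Unc5c* without 1 or 2 (-1.29 and -1.24). Of the 8 that passed in every fit, *Epha2*, *Sema4d* and *Sema6d* needed their hypertrophic libraries to pass the filter on low values. The same holds for these and *Slit2* among the 14 against WT resting.

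Hypertrophic replicate 1 differed from replicates 2 and 3 in the sums of osteoclast, endothelial and macrophage markers given above, and the part of those cells in the values of replicates 2 and 3 was not tested. Replicate 1 had 38.4 NRPKM of the osteoclast markers, 21.8 of the endothelial and 23 of the macrophage markers, against 12.3 to 26.7, 7.38 to 15.2 and 17.2 to 24.2 in the proliferative libraries. Osteoblast and perichondrial markers summed to 781 in replicate 1 and 1435 and 2199 NRPKM in replicates 2 and 3 (367 to 777 in WT resting), and erythroid markers to 63.9, 374 and 412. Schwann cell markers went the other way, at 51.7 in replicate 1, the highest of the 12 libraries, and 9.85 and 8.12 in the others. The part of these in the values was not tested either. In replicate 1, 16 of the 39 members lay above all 6 resting and proliferative libraries, against 17.4% of all genes, and 5 lay below (17.7%). In replicates 2 and 3 together, 19 lay above (21.3% of all genes) and 5 below (19.4%). The 12 members that lay above in all 3 libraries were *Efna1*, *Epha2*, *Plxna2*, *Robo2*, *Sema3b*, *Sema4b*, *Sema4d*, *Sema5a*, *Sema6d*, *Slit2*, *Slit3* and *Unc5b*. Of these, *Epha2*, *Sema4d*, *Sema6d* and *Slit2*, also among the 16 and the 19, needed their hypertrophic libraries to pass the filter on low values. Their place above the 6 libraries is no independent evidence. Another 7 lay above in replicates 2 and 3 but not in replicate 1, namely *Plxna1*, *Plxna4*, *Plxnb2*, *Plxnd1*, *Sema3a*, *Sema3f* and *Sema4c*. Of the 7, *Sema3f* and *Sema4c* likewise needed their hypertrophic libraries for the filter. No share of all genes was computed for the 12 or the 7.

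Set against the proliferative mean, *Sema3b* was higher by log2 2.15 in replicate 1 and 1.98 in replicates 2 and 3, *Efna1* by 1.18 and 1.34, and *Robo2* by 1.16 and 0.76. For these genes the values were close. *Plxnd1* was higher by 0.36 in replicate 1 and 2.16 in replicates 2 and 3, *Plxna4* by 0.37 and 2.44, *Slit2* by 1.07 and 3.26, and *Sema6d* by 1.22 and 3.35. *Sema4d* was higher by 2.10 and 3.86, *Slit3* by 1.48 and 2.21, and *Unc5b* by 0.83 and 1.57. *Sema3f* and *Sema4c* were below it in replicate 1 (-0.15 and -0.07) and above it in replicates 2 and 3 (2.06 and 1.76), while *Sema6a* and *Epha7* were above it in replicate 1 (0.64 and 0.80) and below it in the others (-1.20 and -1.23). A fit with replicate 1 as the only hypertrophic library gives these same log2 values of replicate 1 against WT proliferative, and 1.37 for *Epha2*. *Epha2*, *Sema4d*, *Sema6d* and *Slit2* needed their hypertrophic libraries to pass the filter on low values. Their higher values in replicate 1 are therefore no independent evidence. In that fit *Sema3f* was lower than in WT resting, at log2 -1.12, where it was 0.35 with all 3 libraries. This fit was added after the values were seen and assumes that the lone library varies like those of the other group.

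**Figure D3:**
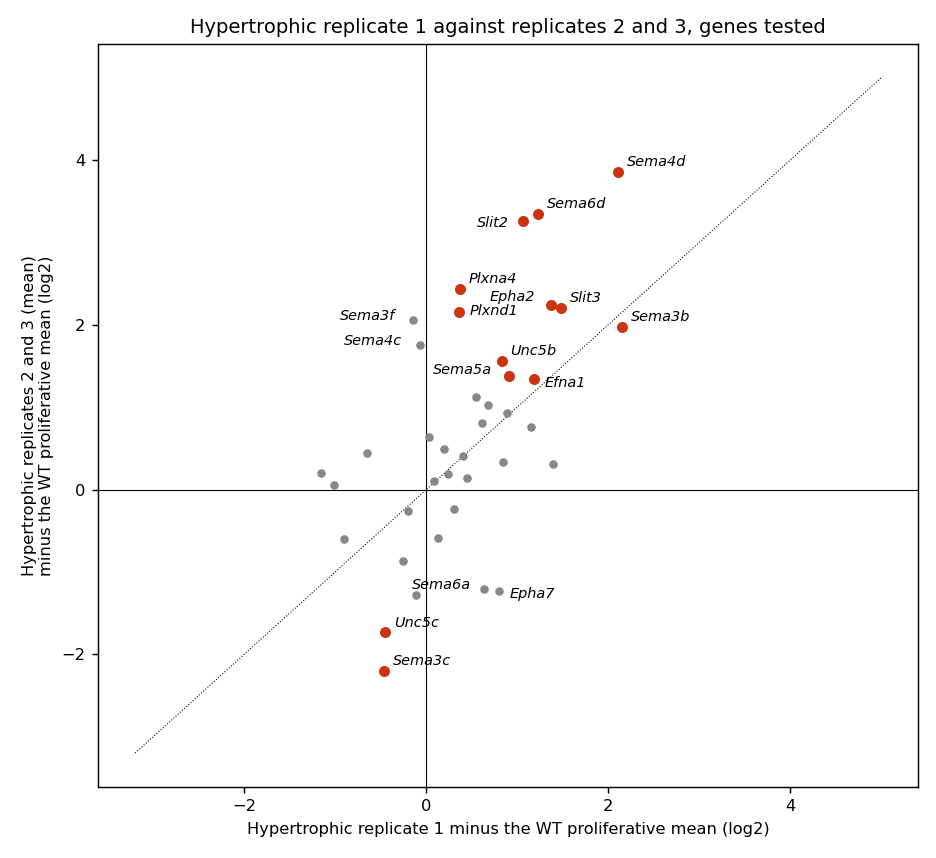
Each point is 1 of the 39 genes tested. The x axis gives log2(NRPKM + 0.1) in WT hypertrophic replicate 1 minus the WT proliferative mean, the y axis the same for the mean of replicates 2 and 3, and the dotted line marks equal values. Red points passed the criteria against WT proliferative. *Sema3b* and *Efna1* lie near the line, while *Plxnd1*, *Plxna4*, *Slit2*, *Sema6d* and *Sema4d* lie well above it.

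The comparison of *aadd* with WT resting asked how mutation of the posterior Hox genes affected guidance genes. With the criteria used for it (unadjusted *P* up to 0.05 and FC of at least 1.5), 11 of the 39 members passed, against 6.56% of all genes. The 10 higher members (3.78% of all genes) were both Robo receptors tested, *Slit2*, the plexins *Plxna2* and *Plxna4*, the class 3 semaphorins *Sema3a*, *Sema3c* and *Sema3f*, and the ephrins *Efna5* and *Efnb2*. *Epha2* was lower (2.78% of all genes). *Plxna4*, *Sema3f* and *Slit2* (3 of the 11) would not have passed the filter on low values without the *aadd* libraries, and their calls depend on that in the same way. WT hypertrophic replicates 2 and 3 also counted toward the filter for these genes. No Unc5 receptor or netrin tested passed. The median log2 fold change was 0.03 over the members and 0.01 over all genes. Without overlap were 13 members (15.4% of all genes), 10 of them higher (8.08%) and 3 lower (7.34%).

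*Plxna4*, a receptor of class 3 and class 6 semaphorins, was at 2.86, 2.51 and 2.41 NRPKM in WT resting and 15.4, 12.2 and 13.2 in *aadd*. The 3 *aadd* libraries were close together and above all 9 WT libraries, of which the highest was at 6.08. No WT resting library reached the 5 NRPKM of the filter. The gene was 5.09-fold higher (log2 2.35 ± 0.17, adjusted *P* = 0.013), the only member with an adjusted *P* under 0.05, against 0.119% of all genes (0.0823% higher). About 378 to 604 reads stood behind each *aadd* value and 85 to 119 behind each WT resting value. An antisense row inside the gene, *Plxna4os1*, was at 2.81 NRPKM at most. *Plxna2* was at 1.33, 0.952 and 2.57 NRPKM in WT resting and 2.92, 3.44 and 4.26 in *aadd*, still under every proliferative library (2.26-fold higher, adjusted *P* = 0.35).

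Of the Slit and Robo genes tested, both receptors and 1 of the 2 ligands were higher. *Robo1*, at 23, 11.1 and 19.3 NRPKM in WT resting, was at 42.9, 28.3 and 43.2 in *aadd*, above all WT libraries (2.19-fold higher, adjusted *P* = 0.33). *Robo2*, at 6.71, 2.98 and 5.47 NRPKM in WT resting, was at 11.8, 11.1 and 14.6 in *aadd*, without overlap (2.56-fold higher, adjusted *P* = 0.25). Its *aadd* libraries lay above the WT proliferative libraries and overlapped the WT hypertrophic ones. *Slit2* was at 1.28, 2.29 and 3.04 NRPKM in WT resting and 4.85, 8.83 and 6.62 in *aadd* (3.06-fold higher, log2 1.62 ± 0.35, adjusted *P* = 0.23). *Slit3*, the other Slit tested, was at 9.18, 10.3 and 9.24 NRPKM in *aadd*, inside or just under the resting range (log2 -0.47 ± 0.31, adjusted *P* = 0.69).

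*Efna5*, a membrane-anchored ligand of EphA receptors, was at 9.98, 6.92 and 8.43 NRPKM in WT resting and 21.1, 29.6 and 34.6 in *aadd*. Each *aadd* library was above every WT library, and the gene was 3.31-fold higher than in WT resting (log2 1.73 ± 0.24, adjusted *P* = 0.089). A row inside *Efna5*, *LOC101056127*, was at 10.3 NRPKM at most. *Efnb2*, the transmembrane partner of Ephb4, was at 26.5, 30.4 and 35.8 NRPKM in WT resting and 56.2, 47.0 and 45.7 in *aadd* (1.61-fold higher, adjusted *P* = 0.31), also above all WT libraries. Its receptor gene *Ephb4* was at 40.4, 35.6 and 23.1 NRPKM in *aadd*, overlapping WT resting (log2 -0.26 ± 0.27). *Epha4* was at 17.4, 11.4 and 19.8 NRPKM in *aadd* against 13.5, 11.4 and 9.05 in WT resting and did not pass (log2 0.50 ± 0.26).

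Of the secreted semaphorins, *Sema3c* was at 20.2, 14.2 and 17.3 NRPKM in WT resting and 21.9, 28.8 and 33.2 in *aadd* (1.61-fold higher, adjusted *P* = 0.38), above all WT libraries. *Sema3a* was at 9.82, 9.97 and 5.97 and 11.0, 16.3 and 13.7 NRPKM (1.61-fold higher, adjusted *P* = 0.47) and *Sema3f* at 3.77, 3.84 and 2.97 and 5.77, 6.38 and 4.62 (1.56-fold higher, adjusted *P* = 0.35), neither overlapping. *Epha2* was at 2.62, 3.13 and 1.58 NRPKM in WT resting and 1.42, 1.78 and 1.07 in *aadd* (1.64-fold lower, adjusted *P* = 0.51), with overlap. The *aadd* libraries all lay above the 9 WT libraries for 5 members (*Efna5*, *Efnb2*, *Plxna4*, *Robo1* and *Sema3c*), against 2.82% of all genes, and below them for 0 members (1.09% of all genes). Of the 5, *Plxna4* needed its *aadd* libraries to pass the filter on low values, so that its place among them is no independent evidence.

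Several genes that were higher in WT hypertrophic overlapped WT resting in *aadd*. *Unc5b* was at 3.12, 4.80 and 2.53 NRPKM in *aadd*, below all 6 WT proliferative and hypertrophic libraries (log2 -0.38 ± 0.29 against WT resting, not passing). *Plxnd1* was at 3.42, 7.65 and 2.32 NRPKM, *Sema4d* at 1.41, 1.11 and 2.36 and *Sema6d* at 1.41, 5.39 and 1.68, each overlapping WT resting. *Ephb3* was at 14.9, 14.5 and 11.4 NRPKM in *aadd*, above all proliferative and hypertrophic libraries. For scale, markers of hypertrophic chondrocytes summed to 24.9 to 38.9 NRPKM in *aadd*, 41 to 61.8 in WT resting and 624 or more in the other 6 libraries.

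**Figure D4:**
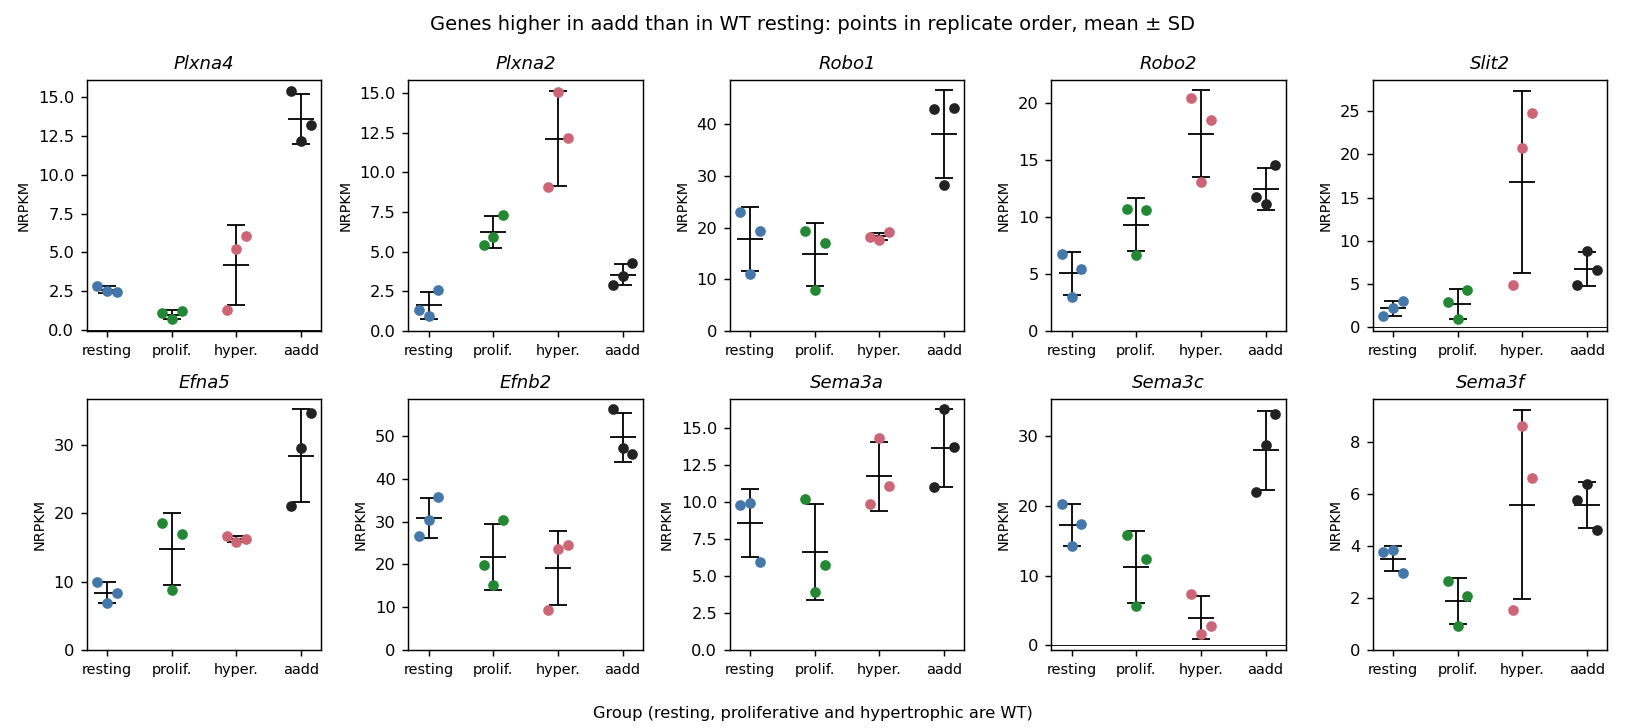
NRPKM (linear axis from 0) of the 10 members higher in *aadd* than in WT resting, in each library of the 4 groups. Points are libraries in replicate order and bars the mean ± SD of 3 libraries. For *Plxna4*, *Robo1*, *Efna5*, *Efnb2* and *Sema3c* the *aadd* libraries lie above all others, while for *Plxna2*, *Robo2*, *Slit2* and *Sema3f* the highest libraries are WT hypertrophic.

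Of the 11, 6 passed in every fit with a library left out (*Efna5*, *Plxna2*, *Plxna4*, *Robo1*, *Robo2* and *Slit2*). Among the 6, *Plxna4* and *Slit2* needed their *aadd* libraries to pass the filter on low values. *Efnb2* lost the call without resting replicate 1 (log2 0.58), *Sema3c* without *aadd* replicate 3 or resting replicate 2 (0.55 and 0.56), *Sema3a* without *aadd* replicate 2 or 3 or resting replicate 3 (0.55, 0.67 and 0.44), *Sema3f* without *aadd* replicate 2 or resting replicate 3 (0.55 and 0.53), and *Epha2* without *aadd* replicate 1 or 3 or resting replicate 1 or 2 (-0.73, -0.54, -0.64 and -0.52). The adjusted *P* of *Plxna4* was 0.078 without *aadd* replicate 3 and 0.2 when all 12 libraries were fitted together. Joint markers summed to 328 to 367 NRPKM in *aadd* and 205 to 259.6 in WT resting, and skeletal muscle markers to 18.5 to 61.6 and 8.74 to 17.6. Perichondrial and osteoblast markers overlapped, at 404 to 1054 and 367 to 777 NRPKM, and Schwann cell markers likewise at 14 to 25.8 and 15.3 to 32.5, with *Foxd3* at 0 in every library. In *aadd* replicate 2, where *Slit2*, *Plxnd1* and *Sema6d* were highest among the *aadd* libraries, endothelial markers summed to 38.9 NRPKM (10.5 and 5.81 in replicates 1 and 3), macrophage markers to 40.0 (13.2 and 13.3) and erythroid markers to 191 (61.6 and 76.5). The part of these in the *aadd* values was not tested.

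**Figure D5:**
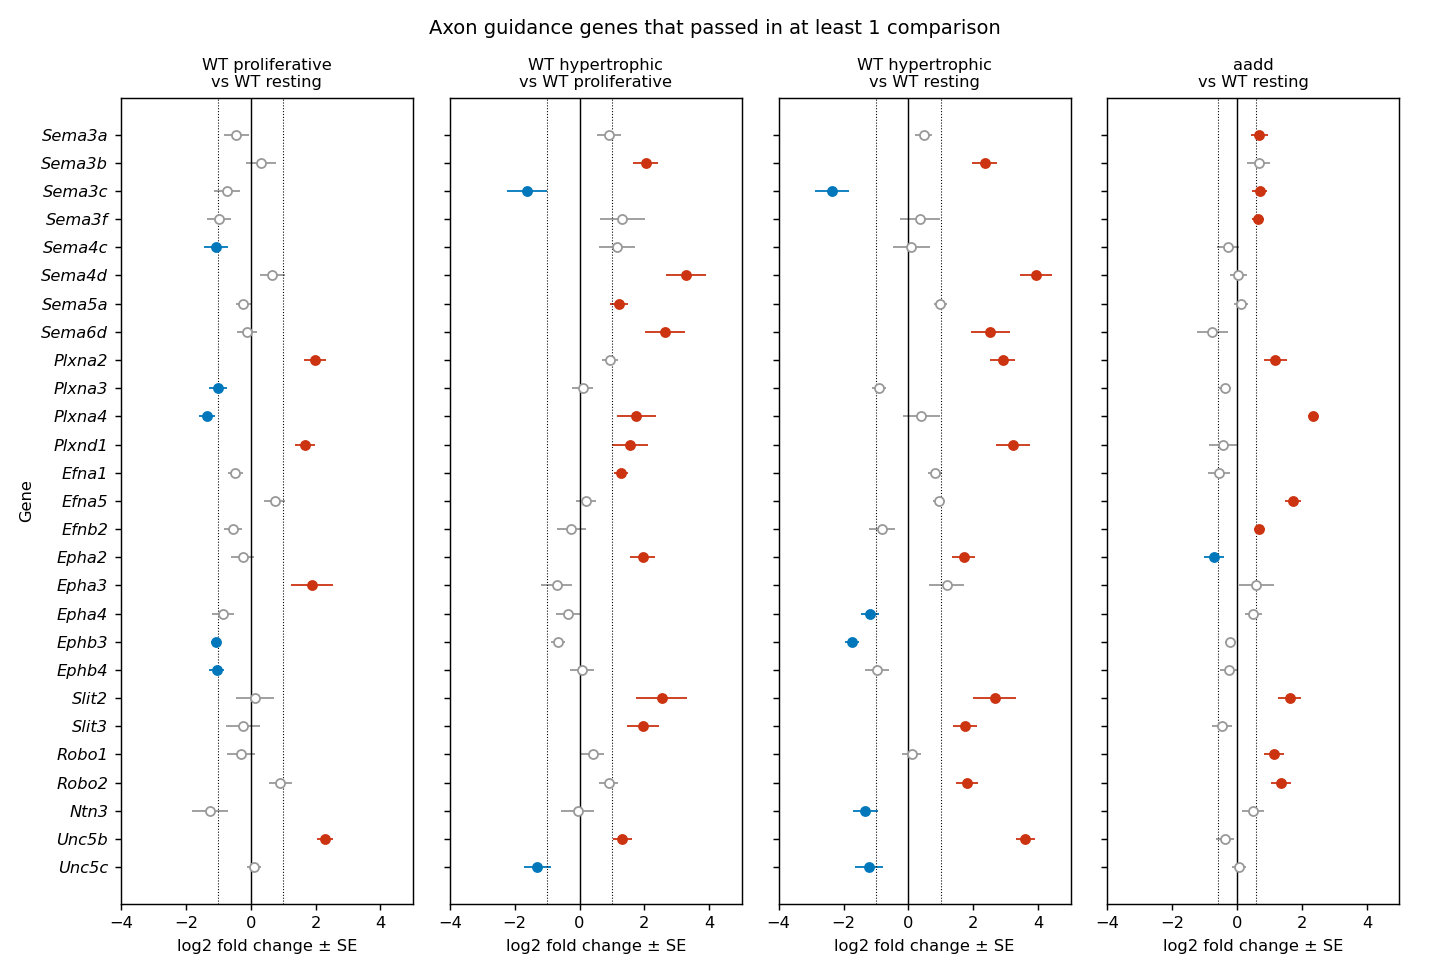
log2 fold change ± SE (x axis) of the 27 members that passed in at least 1 of the 4 comparisons. Filled red points are higher and filled blue points lower by the criteria, open points did not pass, and dotted lines mark the fold required (2 between WT compartments, 1.5 for *aadd*). The comparisons share libraries of WT resting, WT proliferative or WT hypertrophic with each other.

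In all, 27 of the 39 members passed in at least 1 comparison and 12 in none. No share of all genes was computed for this count, and the comparisons share libraries. Among the 12, *Plxnb2* was at 23.8 to 48.2 NRPKM, *Plxna1* at 14.8 to 33.9 and *Plxnb1* at 13.3 to 23.1 over the 12 libraries. *Sema3d* averaged 30.2 ± 5.88 NRPKM (SD, n = 3) in WT proliferative and 15.7 ± 3.67 in WT resting. *Sema4b* averaged 7.96 ± 1.49 NRPKM in WT hypertrophic and 4.68 ± 0.780 in WT resting. *Efna2*, *Efna4*, *Efnb1*, *Epha7*, *Ephb2* and *Sema4g* had group means between 4.29 and 18.3 NRPKM, and *Sema6a* between 41.6 and 57.6.

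Of the 29 members that were not tested, 3 reached 10 NRPKM in a library. *Sema7a*, a membrane-anchored semaphorin, was at 2.999, 32.7 and 38.9 NRPKM in WT hypertrophic and at most 2.06 elsewhere. *Robo4*, a Robo of endothelial cells, was at 1.26, 17.2 and 13.2 NRPKM in WT hypertrophic and at most 1.90 elsewhere. Both were high in replicates 2 and 3, the libraries with high endothelial, macrophage and osteoclast marker sums. *Ntng2* went the other way, with 10.4, 0.523 and 2.22 NRPKM. *Ntn1*, the founding netrin, was at 1.25, 2.10 and 4.77 NRPKM in WT resting and 5.07, 8.97 and 3.47 in *aadd*, and *Ntn4* at 3.41, 6.95 and 8.88 in WT hypertrophic and at most 2.92 elsewhere. *Ntng1* reached 7.45 NRPKM, *Ephb6* 6.22, *Efnb3* 5.98, *Efna3* 5.32 and *Sema5b* 5.18. The other 19 stayed under 5 NRPKM in every library, *Sema4a* highest at 4.45, then *Sema3e* at 4.34, *Epha5* at 4.21, *Sema6c* at 3.47, *Sema4f* at 3.38, *Epha1* at 3.25 and *Plxnc1* at 2.81. *Epha8* reached 2.44, *Sema6b* 1.92, *Ephb1* 1.71, *Unc5d* 1.55, *Slit1* 1.403, *Ntn5* 1.29, *Unc5a* 1.20, *Epha10* 1.09, *Robo3* 0.95, *Sema3g* 0.68, *Epha6* 0.60 and *Plxnb3* 0.27. The known ligand of plexin-D1, *Sema3e*, was thus at 0.52 to 4.34 NRPKM.

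The neuropilins and other partners of these receptors were taken as a list of 39 genes, of which 29 were tested. Between WT proliferative and WT resting 4 were higher (*Nrp1*, *Chn2*, *Dpysl3* and *Vav3*, beside 2.56% of all genes) and *Nck2* was lower (2.97%). *Nrp1*, a co-receptor of class 3 semaphorins, was at 2.15, 1.49 and 2.44 NRPKM in WT resting, 12.53, 12.9 and 9.78 in WT proliferative and 7.94, 29.0 and 25.6 in WT hypertrophic. Its rise between the first 2 had a log2 value of 2.49 ± 0.23 (SE) and an adjusted *P* of 0.014. *Nrp2*, the other neuropilin, was at 17.7, 17.9 and 11.9 NRPKM in WT resting, 37.5, 14.02 and 26.2 in WT proliferative and 62.0, 70.1 and 74.9 in WT hypertrophic, with replicate 1 close to the others (log2 2.14 over WT resting, adjusted *P* = 0.006). In WT hypertrophic 10 were higher and 3 lower than in WT resting (5.84% and 7.2% of all genes), and 6 were higher and 2 lower than in WT proliferative (5.32% and 4.34%). Lower in both were *Rgma*, a membrane-anchored ligand of neogenin, at 17.0, 22.3 and 22.2 NRPKM in WT resting and 9.16, 1.49 and 1.80 in WT hypertrophic, and *Flrt1*. In *aadd* *Flrt2*, whose product binds Unc5 receptors, was higher (log2 1.05, adjusted *P* = 0.38) and *Mical1* lower (log2 -0.77, adjusted *P* = 0.41), beside 3.78% and 2.78% of all genes. *Dcc*, a netrin receptor, did not reach 5 NRPKM.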

How the data were processed

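RNA of laser-captured cartilage was sequenced in 12 libraries of 4 groups, with 3 each. The deposited values are NRPKM, RPKM values that the authors normalized further between libraries in GeneSpring on mm10 (the submitters' processing notes name TopHat), after removing duplicate and multiply aligned reads. Strand and raw counts are not given in the sources used here. Columns were matched to samples by title, and 0 columns were left unmatched.

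Genes were kept when 3 or more libraries reached 5 NRPKM (10936 of 36186). Each pair of groups was fitted over its 6 libraries with limma 3.58.1 in R 4.3.3 on log2(NRPKM + 0.1), and adjusted *P* is Benjamini-Hochberg over all genes kept. The fold and *P* limits were those of the study, FC of 2 or more (1.5 or more for *aadd*) and *P* no higher than 0.05, taken here before adjustment since no adjustment is stated. The test on pooled reads that the study also ran for *aadd* was not used here. Members passing them in any comparison were named with each library, other tested members with ranges, and untested members with their highest value. Reads were estimated from the steps between low values, of which 85.2 to 94% lay within 0.1 of a whole read. The script was tested on simulated data.

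The fits have no replicate block. Between WT proliferative and WT resting, deviations of same-numbered libraries correlated at 0.179 to 0.281. There 6 of 6 libraries correlated best with their own number, a hint from the data of shared sets that the main fit does not use. Blocked values are given beside that comparison. Alternatives were pseudocount 1, no filter, median-of-ratios and quantile scaling, a replicate block, 1 fit of all 12 libraries and leaving out each library. The gene families and lists were picked for study with earlier results of these data known, although membership follows from symbols. Summaries used pandas 2.3.3 and numpy 2.4.6, and plots matplotlib 3.10.9, in Python 3.11.15.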

Additional observations from a re-analysis of the deposited data

How the results depend on the processing

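Of the calls of the study's criteria, 3 of 9 between WT proliferative and WT resting (*Plxna2*, *Plxnd1* and *Unc5b*), 8 of 13 between WT hypertrophic and WT proliferative, 14 of 15 between WT hypertrophic and WT resting, and 6 of 11 between *aadd* and WT resting passed in every alternative planned. Without the filter on low values, more genes and more members were tested. Between WT proliferative and WT resting 15 members then passed, beside 6.48% of all genes, and between WT hypertrophic and WT resting 26, beside 11%. The numbers with an adjusted *P* under 0.05 by limma were 0 and 2, with 11 in the F test. With all 12 libraries in one fit, 11 members had an adjusted *P* under 0.05 for WT hypertrophic against WT proliferative, 17 against WT resting and 0 for *aadd*. By the criteria 6 members passed for *aadd* in that fit, beside 4.83% of all genes. With the replicate block the numbers with an adjusted *P* under 0.05 were 0 for WT proliferative, 6 for WT hypertrophic against WT resting and 0 for *aadd*. With libraries left out, the numbers with an adjusted *P* under 0.05 ranged from 0 to 1 between WT proliferative and WT resting, 0 to 19 between WT hypertrophic and WT proliferative, 1 to 21 between WT hypertrophic and WT resting, 0 to 1 in *aadd* and 8 to 25 in the F test. Shares of all genes by adjusted *P* were computed for the main fits only, and for none of these alternatives. Between WT hypertrophic and WT proliferative, 8 to 19 members passed the criteria in these fits, beside 6.02% to 18.4% of all genes. Hypertrophic replicate 1 alone, an alternative chosen after seeing the data, gave a log2 value of -1.12 for *Sema3f* against WT resting. Where no construction of the alternative shows it, the cause was not tested.

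Deviations of same-numbered libraries correlated at -0.058 to 0.124 between WT hypertrophic and WT proliferative, 0.063 to 0.111 between WT hypertrophic and WT resting and -0.097 to 0.28 between *aadd* and WT resting, with 3, 6 and 3 of 6 libraries correlating best with their own number. In none of these did every pair exceed 0.1, and the numbers were not taken as pairs, although 6 of 6 between WT hypertrophic and WT resting is a hint from the data of shared sets. Depth limits the low genes most, such as *Plxna4* in WT proliferative.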
